A study of Homo sapiens with 4 samples.

Results

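The NF-κB pathway and its inflammatory target genes were followed here through 39 genes, of 18134 in the expression table. They were picked by gene symbol from the known pathway. The rule uses no measured value, but the genes were chosen with earlier results of these data known. The 39 genes comprised 5 NF-κB subunits, 6 inhibitors, 5 signalling adaptors and regulators, 10 cytokines, 3 chemokines and 10 effector genes. The CXCL chemokines were left out. The cells were PC9, an established human lung adenocarcinoma line. The control group, shNC, received a lentivirus with a negative-control short hairpin, and the TPX2 knockdown group, shTPX2, received a lentivirus with a hairpin against TPX2, a spindle-assembly factor. Both groups went through antibiotic selection to give stable lines, so the controls had also been infected and selected, and whether a line was a pool or a clone is not given in the sources used here. Each group had 2 libraries of poly(A) RNA, named shNC 1, shNC 2, shTPX2 1 and shTPX2 2, and the labels put all 4 libraries in the same batch. The comparison asked which transcripts differ when TPX2 is depleted.

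NF-κB is a family of dimeric transcription factors that resting cells hold in the cytoplasm, bound to IκB proteins. Signals from cytokine, Toll-like and other receptors reach the IκB kinase complex, which marks IκB for destruction and lets the dimers enter the nucleus. Among the first genes they switch on are their own inhibitors, which close the loop, together with cytokines, chemokines, adhesion molecules and acute-phase proteins. In lung epithelium and lung tumours the pathway is best known for driving inflammatory secretion and cell survival.

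Library totals ran from 20906441 to 21972583 expected counts, the estimated number of fragments per gene. TPX2 stood at 55.01 and 111.85 TPM (a level scaled for transcript length and library size) in shNC 1 and shNC 2 and at 43.35 and 43.77 TPM in shTPX2 1 and shTPX2 2. Its log2 fold change was −0.81 (SE 0.32, edgeR quasi-likelihood adjusted p = 0.618, unadjusted p = 0.0403), and it was −1.21 without shNC 1 and −0.24 without shNC 2. Both shTPX2 libraries were below both shNC libraries for TPX2, which was called lower at the study's criteria given below. The libraries of a group were as far apart as the groups: the chi-square of their counts, per gene, was 71.5 between the shNC libraries and 42.6 between the shTPX2 libraries, against 39 to 65.5 between groups. The epithelial markers KRT8, KRT18, KRT19, EPCAM, CDH1 and EGFR were at 78.42 TPM or more in every library, whereas the lung markers NKX2-1, NAPSA and SFTPB were at 1.67 TPM or less. Of 10 leukocyte markers 8 were in the table, 3 of them under 1 TPM everywhere, with PTPRC at 0.28 to 0.69 TPM, ITGAM at 0 to 0.25 TPM and CD3E at 0 to 0.26 TPM. Their summed level was 145.37 and 258.73 TPM in the shNC libraries and 208.37 and 193.97 TPM in the shTPX2 libraries, most of it CD68, a lysosomal protein that many cell types express. The 5 fibroblast markers summed to 5.90 to 12.40 TPM and the 3 endothelial markers to 19.87 to 36.49 TPM. Of these, CDH5 was at 14.37 and 18.09 TPM in shNC and at 26.71 and 30.51 TPM in shTPX2. The edgeR test gave CDH5 a log2 fold change of 0.94 (adjusted p = 0.439). With DESeq2 the adjusted p of CDH5 was 0.0184. PECAM1 had the opposite sign (log2 fold change −0.79), and VWF was at 0.06 to 0.17 TPM. The part of any marker list in the results was not tested.

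No NF-κB gene passed the edgeR test at an adjusted p below 0.05, at which 0% of the 14048 genes tested passed. Among the 39 genes, 36 had enough counts to be tested, and their smallest adjusted p was 0.597. At an unadjusted edgeR p below 0.05 there were 2, NFKBIA and CCL20, both higher in shTPX2. Over all genes tested 8.03% lay below it, 3.13% higher and 4.9% lower. DESeq2 called 0 of the 36 at an adjusted p below 0.05, and called 0.79% of all genes. The criteria of the study (limma after voom, unadjusted p up to 0.1, log2 change 0.3 or more in either direction) were met by 4 of the 36, or 11.1%, below the 14.2% of all genes tested that met them. NFKBIA, NFKBIZ and CCL20 were higher in shTPX2 and IL18 was lower, while 6.24% of all genes were called higher and 7.99% lower.

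The 36 log2 fold changes comprised 22 positive and 14 negative values with a median of 0.10, against −0.01 over all genes tested. On the log2 CPM scale (counts scaled to library size), the shNC and shTPX2 libraries did not overlap for 7 of the 36 genes, or 19.4%, against 39.6% of all genes, of which 19.4% were higher and 20.2% lower. Of the 7, NFKBIA, NFKBIZ, CCL5 and CCL20 were higher in shTPX2 and NFKBIE, BIRC2 and IL18 were lower. With 2 libraries against 2, an exact permutation test of a single gene cannot go below p = 0.333. Since RNA came from whole cultures, fewer cells that express a gene and less of its RNA per cell cannot be told apart.

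**Figure D1:**
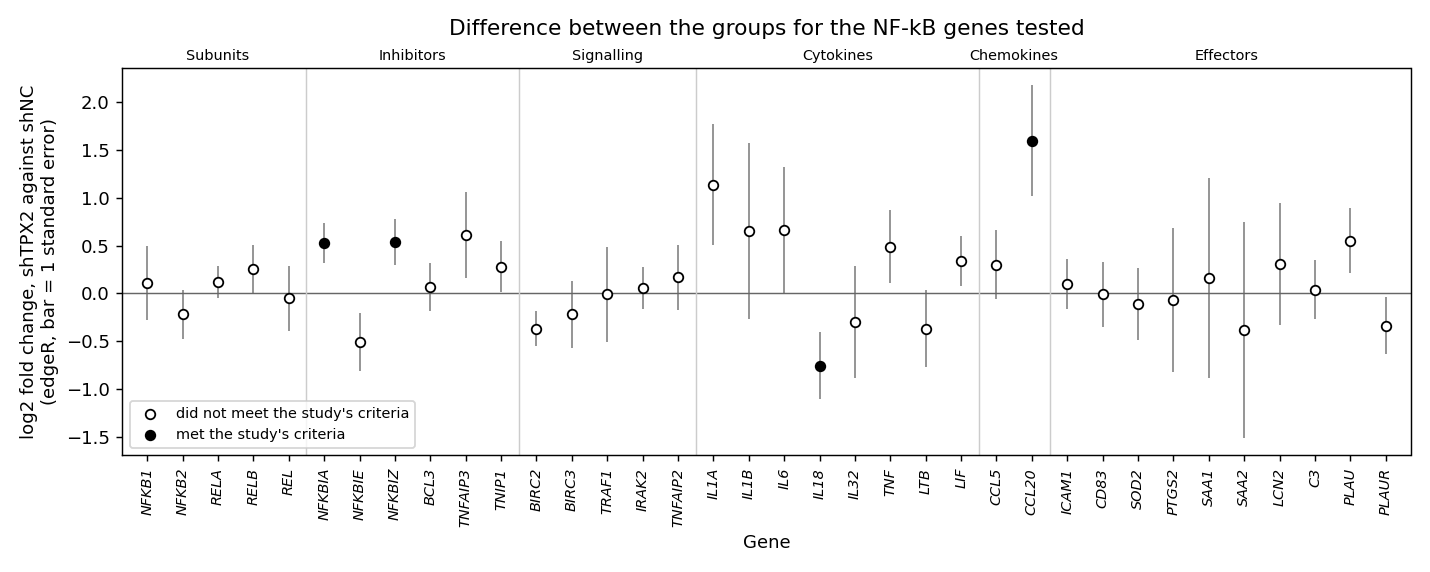
The log2 fold change of shTPX2 against shNC from edgeR is plotted on the vertical axis for the 36 NF-κB genes tested, grouped by role, with bars of 1 standard error and filled points for the genes that met the study's criteria. NFKBIA, NFKBIZ and CCL20 lie above 0 and IL18 below it, and the bars of SAA1 and SAA2, at 1.05 and 1.13, are the longest.

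NFKBIA encodes IκBα, the main cytoplasmic inhibitor of NF-κB and a direct target of it. It was read at 318.7 TPM in shNC 1, 260.8 TPM in shNC 2, 427.7 TPM in shTPX2 1 and 340.2 TPM in shTPX2 2. Both shTPX2 libraries were thus above both shNC libraries, and shNC 1 and shTPX2 2 were the nearest of them. The log2 fold change was 0.53 (SE 0.21, edgeR adjusted p = 0.621), from group means of 290 ± 41.0 and 384 ± 61.8 TPM (SD, n = 2 each).

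NFKBIZ encodes IκBζ, a nuclear IκB protein that helps to switch on a subset of NF-κB targets, LCN2 among them. Its level was 14.86 TPM in shNC 1 and 22.73 TPM in shNC 2, against 26.81 TPM in shTPX2 1 and 23.06 TPM in shTPX2 2. shNC 1 stood lowest, and shNC 2 and shTPX2 2 were nearly level. The log2 fold change was 0.54 (SE 0.24, edgeR adjusted p = 0.647), and 0.29 without shNC 1.

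CCL20 encodes the chemokine that draws cells bearing CCR6, such as immature dendritic cells. The control libraries held 2.00 and 3.44 TPM, while shTPX2 1 reached 10.58 TPM and shTPX2 2 stood at 4.43 TPM. shTPX2 1 was the highest, at 2.39 times shTPX2 2, and shNC 2 was 1.72 times shNC 1. Its log2 fold change of 1.60 (SE 0.58, edgeR adjusted p = 0.597) had the largest size among the 36 genes, and was 0.81 without shTPX2 1.

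IL18 encodes a cytokine that epithelial cells make as an inactive precursor and that inflammasome caspases mature. It was at 127.7 TPM (shNC 1) and 81.57 TPM (shNC 2) in the controls, and at 72.31 TPM (shTPX2 1) and 40.75 TPM (shTPX2 2) in the knockdown. The groups did not overlap, but shNC 2 and shTPX2 1 were closer to each other than either was to its own partner. The log2 fold change was −0.76 (SE 0.35, edgeR adjusted p = 0.653), and it was −0.37 without shNC 1 and −0.39 without shTPX2 2.

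None of these 4 genes kept the study's criteria each time a library was left out, although none of their fold changes reversed. NFKBIA lost them without shNC 2 and without shTPX2 1. NFKBIZ and CCL20 lost them without shNC 1 and without shTPX2 1, and IL18 without shNC 1 and without shTPX2 2.

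In RefSeq annotation of GRCh38.p14, NFKBIA lies at chr14:35401513-35404749, NFKBIZ at chr3:101827990-101861022, CCL20 at chr2:227813842-227817556 and IL18 at chr11:112143260-112164094. NF-κB dimers bind a decameric DNA element, the κB site, and 3 of these genes hold a match to its consensus in the 250 bases upstream of an annotated start. They are the called genes with such a match and are printed to show where the letters lie, while IL18 had no promoter entry in the table used. Each runs 5′ to 3′ on the strand of the gene, and the capitals mark the match: NFKBIA from chr14:35404750-35404999 on the minus strand, NFKBIZ from chr3:101827740-101827989 on the plus strand, and CCL20 from chr2:227813592-227813841 on the plus strand.
NFKBIA: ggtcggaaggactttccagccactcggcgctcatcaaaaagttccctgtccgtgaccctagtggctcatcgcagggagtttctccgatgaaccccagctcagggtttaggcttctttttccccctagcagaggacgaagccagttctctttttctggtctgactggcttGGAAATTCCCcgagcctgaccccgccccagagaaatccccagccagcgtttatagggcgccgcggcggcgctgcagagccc
NFKBIZ: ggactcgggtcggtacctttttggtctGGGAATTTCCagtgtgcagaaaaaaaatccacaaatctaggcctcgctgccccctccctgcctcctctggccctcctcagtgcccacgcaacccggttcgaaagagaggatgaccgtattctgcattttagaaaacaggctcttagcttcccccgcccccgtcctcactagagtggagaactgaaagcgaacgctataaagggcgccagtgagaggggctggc
CCL20: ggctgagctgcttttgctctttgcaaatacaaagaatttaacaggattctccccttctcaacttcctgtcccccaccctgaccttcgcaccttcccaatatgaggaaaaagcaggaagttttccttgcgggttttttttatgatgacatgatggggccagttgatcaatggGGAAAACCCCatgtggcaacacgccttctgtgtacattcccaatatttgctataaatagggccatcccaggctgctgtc

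The NFKBIA match began 81 bases before the start and read GGAAATTCCC, which is the consensus on the opposite strand. In NFKBIZ it began 223 bases before its first annotated start and read GGGAATTTCC, and a further NFKBIZ start had GGGGTTTCCC 239 bases before it. The CCL20 match began 79 bases before the start and read GGAAAACCCC, again the consensus on the opposite strand. Promoter entries existed for 29 of the 39 genes, with 46 annotated starts. The κB consensus, searched on both strands, was in 17 of these 46 windows (37.0%), against 3498 of all 35116 windows of the same length (9.96%). By gene, 14 of the 29 (48.3%) held a match at any start, against 11.8% of 27305 genes. The genes were listed as members or targets of the NF-κB pathway to begin with, and a match is a description of the letters, not of binding.

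None of the 5 subunits met the study's criteria or had groups that did not overlap. RELA, the transactivating subunit of the commonest dimer, was the steadiest, at 136.8, 122.1, 130.7 and 127.7 TPM in shNC 1, shNC 2, shTPX2 1 and shTPX2 2, with a log2 fold change of 0.12. NFKB1, the precursor of its usual partner, was at 23.36 and 11.14 TPM in the shNC libraries and 19.50 and 14.46 TPM in the shTPX2 libraries (log2 fold change 0.11, SE 0.39). Both shTPX2 values of NFKB1 thus lay between the shNC values.

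The subunits of the alternative pathway, NFKB2 and RELB, had fold changes of opposite sign. NFKB2 was at 59.62 and 90.69 TPM in shNC and at 68.20 and 50.15 TPM in shTPX2 (log2 fold change −0.22). RELB was at 19.81 and 15.18 TPM in shNC and at 21.82 and 16.12 TPM in shTPX2 (log2 fold change 0.25). REL, the subunit typical of lymphoid cells, was the least abundant, at 4.97, 4.25, 5.34 and 2.89 TPM in the same order (log2 fold change −0.05). All 5 subunits were higher in shTPX2 1 than in shTPX2 2 on the log2 CPM scale, as were 51.8% of all genes.

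Besides NFKBIA and NFKBIZ, the inhibitors comprised NFKBIE, BCL3, TNFAIP3 and TNIP1, none of which met the criteria. NFKBIE, encoding the cytoplasmic inhibitor IκBε, was at 9.28 and 15.76 TPM in shNC and at 7.43 and 8.67 TPM in shTPX2. Its groups did not overlap and its log2 fold change was −0.51 (SE 0.30), opposite in sign to that of NFKBIA. BCL3, a nuclear IκB protein that works with NFKB1 and NFKB2 homodimers, was at 100.1 and 155.8 TPM in shNC and at 107.3 and 141.3 TPM in shTPX2, with both shTPX2 values inside the shNC range (log2 fold change 0.07). TNFAIP3, which encodes the ubiquitin-editing enzyme A20, ranged from 8.84 to 22.29 TPM with shTPX2 1 the highest (log2 fold change 0.61, SE 0.45). Its partner TNIP1 ranged from 206.5 to 337.0 TPM, and shTPX2 1 and shTPX2 2 were the highest and the lowest of the 4 libraries.

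Among the 5 signalling genes 0 met the criteria. TNFAIP2, a TNF-induced gene, was among the most abundant of all 39, at 653.6 and 1096.6 TPM in shNC and at 1109.8 and 693.9 TPM in shTPX2 (log2 fold change 0.17). The groups were each split into a low and a high library, by ratios of 1.68 and 1.60. The ubiquitin ligases BIRC2 and BIRC3, which sit on the TNF receptor complex, ranged from 23.90 to 41.44 TPM and from 5.24 to 10.36 TPM. BIRC2 was lower in both shTPX2 libraries (log2 fold change −0.37, SE 0.18), while the groups overlapped for BIRC3 (log2 fold change −0.22). TRAF1, an adaptor of TNF-family receptors, stayed at or under 0.47 TPM in every library, and IRAK2, a kinase downstream of Toll-like and interleukin receptors, lay between 17.18 and 23.92 TPM (log2 fold changes −0.01 and 0.06).

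**Figure D2:**
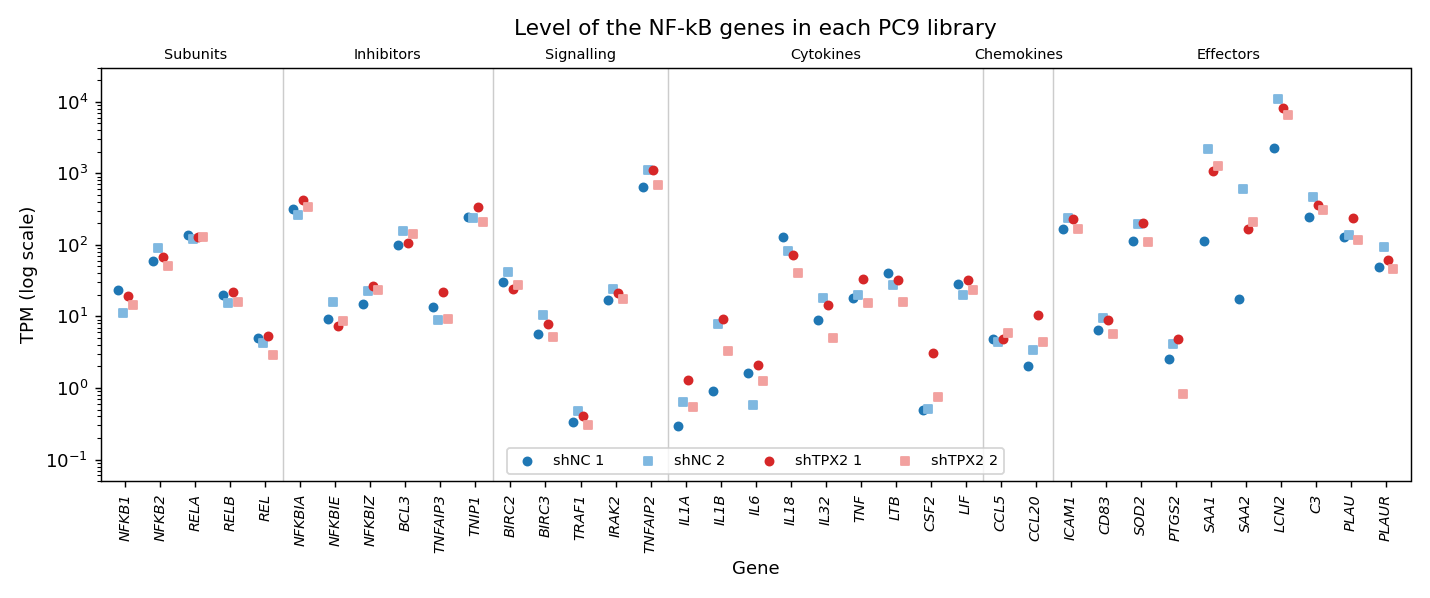
The level of 37 NF-κB genes in each of the 4 libraries is plotted in TPM on a log axis, with circles for library 1 and squares for library 2 of each group, shNC in blue and shTPX2 in red. CSF3 and CCL2, at 0 TPM in 1 or more libraries, are left out. SAA1, SAA2, LCN2 and IL1B show their lowest point in shNC 1, at 112.8, 17.71, 2234 and 0.90 TPM.

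IL18 was the only 1 of 8 tested cytokines to meet the criteria, and all 8 were higher in shTPX2 1 than in shTPX2 2. The pyrogenic cytokine IL1B was spread most, with 0.90 and 7.82 TPM in the controls and 9.14 and 3.26 TPM in the knockdown, and its log2 fold change of 0.65 had an SE of 0.92. Its sister IL1A was lower in level, from 0.29 to 1.30 TPM, with a log2 fold change of 1.14 (SE 0.63, edgeR adjusted p = 0.702) that was 0.37 without shTPX2 1 and 1.75 without shNC 2. IL6, an inducer of the acute-phase response, ranged from 0.58 to 2.13 TPM with its lowest value in shNC 2 (log2 fold change 0.66, SE 0.66), and its fold change was 1.73 without shNC 1 and 0.05 without shNC 2.

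TNF, the classical activator of the pathway, was at 18.08 and 19.82 TPM in shNC and at 33.46 and 15.23 TPM in shTPX2. The shNC libraries thus sat between the shTPX2 libraries (log2 fold change 0.49). IL32 ranged from 4.99 to 18.18 TPM and LTB, the membrane anchor of the lymphotoxin heterotrimer, from 15.99 to 40.93 TPM, each with shTPX2 2 lowest (log2 fold changes −0.30 and −0.37). LIF, a cytokine of the IL6 family, ranged from 20.03 to 32.74 TPM (log2 fold change 0.34). These cytokines were singled out after their values were seen.

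The myeloid growth factors CSF2 and CSF3 were too low to be tested. CSF2 had 4 counts in each shNC library, 26 in shTPX2 1 and 6 in shTPX2 2. CSF3 had 0 counts in both shNC libraries, 7 in shTPX2 1 and 2 in shTPX2 2, so that only shTPX2 1 was above the 3 counts that a count of 0 allows and no fold is given. Most of the counts of both genes came from shTPX2 1.

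Of the chemokines, CCL2, which attracts monocytes, had 0 counts in every library, a total that allows up to 3 counts in each. CCL5, which attracts T cells, was at 4.78 and 4.46 TPM in shNC and at 4.81 and 5.84 TPM in shTPX2. Its groups barely missed an overlap, and its log2 fold change was 0.30 (SE 0.36).

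The 10 effectors included 0 that met the criteria, and all 10 were higher in shNC 2 than in shNC 1. LCN2, which encodes the siderophore-binding protein lipocalin, was the most abundant of the 39 genes, with 2234 and 10751 TPM in the controls and 8172 and 6452 TPM in the knockdown. SAA1, an acute-phase apolipoprotein, was read at 112.8 and 2167.5 TPM in the controls, with 1068.5 and 1254.5 TPM in the knockdown. SAA2, its near copy, followed at 17.71, 606.5, 169.1 and 208.0 TPM in the same order. For each of these genes shNC 1 was the lowest library, shNC 2 the highest, and the shTPX2 libraries lay together between them.

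The ratio of shNC 2 to shNC 1 was 4.81 for LCN2, 19.2 for SAA1 and 34.2 for SAA2, whereas shTPX2 1 over shTPX2 2 was 1.27, 0.852 and 0.813. The log2 fold changes between groups were 0.31 (SE 0.64), 0.16 (SE 1.05) and −0.38 (SE 1.13), and the sign and size of each turned on which shNC library was used. They also depended on the method, since the voom fit gave 0.69, 1.34 and 1.01 for LCN2, SAA1 and SAA2 over the same 4 libraries. Without shNC 1 the edgeR values were −0.40 for LCN2, −0.76 for SAA1 and −1.32 for SAA2. Without shNC 2 they were 1.81, 3.45 and 3.37, in a fit with shNC 1 as the only control, assumed to vary like the shTPX2 libraries. Among the leukocyte markers, CD14 (6.40 to 27.30 TPM), CD68 (125.62 to 220.38 TPM) and ITGAM had shNC 1 lowest and shNC 2 highest. CSF1R ran the opposite way, from 10.49 TPM in shNC 1 to 5.88 TPM in shNC 2. PTPRC and LYZ were lowest in shTPX2 1 and CD3E in shTPX2 2, but PTPRC, LYZ and CD3E were also highest in shNC 2. The part of these markers in the SAA1, SAA2 and LCN2 values was not tested. C3, the central component of complement, had the same lowest and highest library on a smaller scale, at 246.5 and 463.2 TPM against 362.5 and 304.8 TPM (log2 fold change 0.04).

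SAA1 (chr11:18266264-18269967) and SAA2 (chr11:18238236-18248668), on GRCh38.p14, share most of their coding sequence, so reads can be split between them by the counting. Their coding sequences in GENCODE each had 369 bases, with 11 differences, 97.0% identity and an identical run of 186 bases. Coding bases 217 to 306, which hold 9 of the differences, are shown because reads from this stretch can tell the copies apart, and the capitals mark the bases that differ.
SAA1: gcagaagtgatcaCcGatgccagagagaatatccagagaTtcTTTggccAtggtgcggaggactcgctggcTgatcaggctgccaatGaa
SAA2: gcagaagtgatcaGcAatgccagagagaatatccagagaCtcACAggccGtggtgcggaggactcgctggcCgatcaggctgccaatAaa

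Summed over both copies, the level was 130.5 and 2774.0 TPM for the controls against 1237.6 and 1462.6 TPM for the knockdown. In expected counts the sums were 812, 16752, 8056 and 8886 in the same order. Such a split leaves the summed counts unchanged if shared reads were kept, which is not known. It can still alter the summed TPM, which scales each copy by its own length. The gap between the shNC libraries was present in both sums.

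The other effectors were ICAM1, CD83, SOD2, PTGS2, PLAU and PLAUR, none with groups that did not overlap. ICAM1, an adhesion receptor for leukocytes, ranged from 165.4 to 238.1 TPM, and SOD2, the mitochondrial superoxide dismutase, from 111.3 to 201.8 TPM, with log2 fold changes of 0.10 and −0.11. In both genes shNC 2 and shTPX2 1 were high, while shNC 1 and shTPX2 2 were low. PTGS2, the inducible prostaglandin synthase, was at 2.54 and 4.06 TPM in shNC and at 4.89 and 0.82 TPM in shTPX2, a ratio of 5.96 within shTPX2 (log2 fold change −0.07, SE 0.75). PLAU, the urokinase protease, ranged from 118.1 to 239.6 TPM with shTPX2 1 highest, and PLAUR, its receptor, from 46.61 to 94.75 TPM with shNC 2 highest (log2 fold changes 0.55 and −0.34). CD83, a surface protein of activated dendritic cells, lay between 5.73 and 9.48 TPM (log2 fold change −0.01).

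Much of the spread among the NF-κB genes lay between libraries of the same group. shTPX2 1 was above shTPX2 2 for 30 of the 36 genes (83.3%, against 51.8% of all genes), by a median of 0.54 on the log2 CPM scale against 0.01. shNC 2 was above shNC 1 for 24 (66.7%, against 50.3%), by a median of 0.52 against 0. A difference of over 2-fold separated the shTPX2 libraries for 9 genes (25.0%, against 5.23%) and the shNC libraries for 6 (16.7%, against 7.42%). For 32 of the 36 (88.9%, against 73.4%) the wider gap within a group exceeded the difference between the group means. These shares were not tested, since genes of a pathway are not replicates.

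Each library's median deviation over the 36 genes, from the mean of the 4 libraries, was −0.23 for shNC 1 and 0.19 for shNC 2, and it was 0.39 for shTPX2 1 and −0.18 for shTPX2 2. Over all genes tested these medians were 0.01, 0.01, 0.01 and 0. By this median each group held a higher and a lower library, but the shNC split was not shared by all roles. shNC 2 was above shNC 1 for all 10 effectors and all 5 signalling genes. It was above for 1 of 5 subunits, 3 of 6 inhibitors, 4 of 8 cytokines and 1 of 2 chemokines. The effectors led in shNC 2, with a median of 0.84 above shNC 1, and the cytokines led in shTPX2 1, with a median of 1.11 above shTPX2 2.

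**Figure D3:**
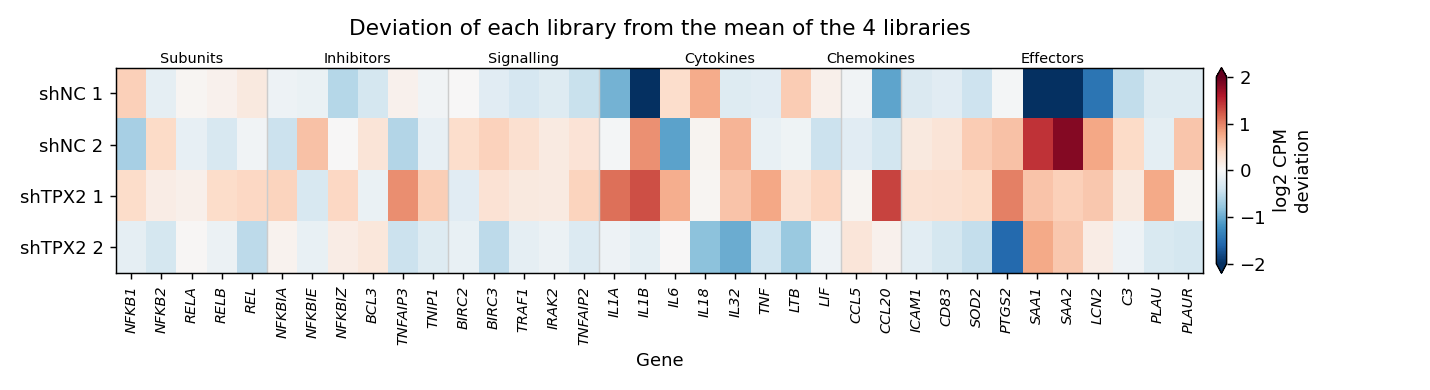
Colour gives the log2 CPM deviation of each library from the mean of the 4 libraries for the 36 NF-κB genes tested, red above and blue below, and the scale stops at 2 in either direction. shNC 1 is deepest blue at SAA1, SAA2 and IL1B, and the cytokines are redder in shTPX2 1 than in shTPX2 2.

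Leaving out a library changed both the number and the direction of the genes that met the study's criteria. Without shNC 1 there were 10, of which 4 were higher in shTPX2 and 6 lower. The median over the 37 genes tested in that fit was −0.14, with 24.3% of all genes called. Without shNC 2 there were 8, of which 7 were higher, with a median of 0.28 and 13.1% of all genes called. Without shTPX2 1 all 4 were lower (median −0.20, 10.9% of all genes), and without shTPX2 2 all 11 were higher (median 0.34, 7.03% of all genes). The log2 fold change reversed its sign in at least 1 of these fits for 24 of the 36 genes and in none for 12.

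**Figure D4:**
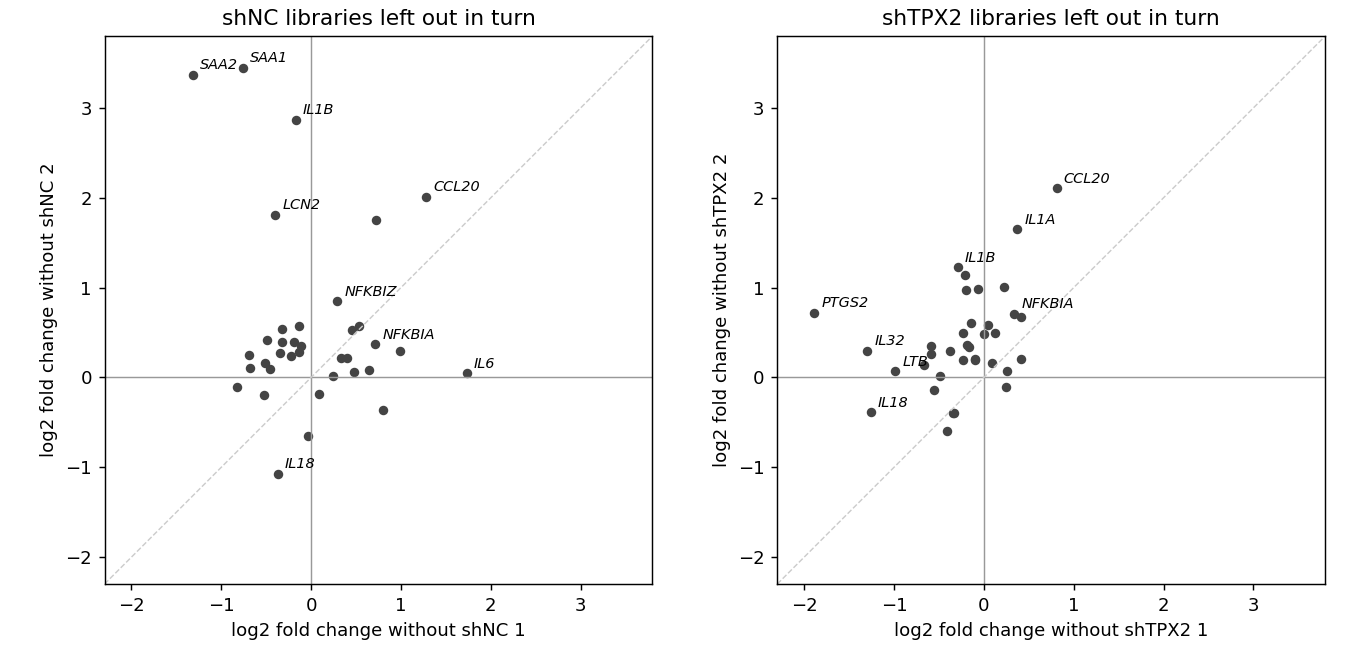
Each point is 1 of the 36 NF-κB genes, with its edgeR log2 fold change without library 1 on the horizontal axis and without library 2 on the vertical axis, for the shNC libraries on the left and the shTPX2 libraries on the right. The dashed diagonal marks equal values, and SAA1, at −0.76 and 3.45, lies far from it on the left.

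The receptors, adaptors, kinases and further IκB proteins upstream of NF-κB were looked at as a list of 51 genes, all of them tested. The criteria were met by 9 of the 51 (17.6%, against 14.2% of all genes), with 6 higher in shTPX2 and 3 lower. The median log2 fold change was 0.04, and 0 passed the edgeR test at an adjusted p below 0.05. CARD10, a scaffold that links receptors to the BCL10 complex, was at 19.02 and 20.50 TPM in shNC and at 25.20 and 27.77 TPM in shTPX2 (log2 fold change 0.55, edgeR adjusted p = 0.579). UBE2N, an enzyme that helps to build ubiquitin chains in this pathway, was at 51.53 and 50.58 TPM against 62.60 and 69.05 TPM (log2 fold change 0.49). NFKBIB, encoding IκBβ, was at 45.03 and 48.51 TPM against 57.74 and 76.27 TPM (log2 fold change 0.63). In all 3 genes both shTPX2 libraries were above both shNC libraries.

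Among the 3 lower genes, MAP3K7, which encodes the TAK1 kinase itself, was at 34.75 and 34.06 TPM in shNC and at 26.64 and 20.76 TPM in shTPX2 (log2 fold change −0.47). TAB3, a TAK1-binding adaptor, had a log2 fold change of −0.44, and CYLD, a deubiquitinase that restrains the pathway, of −0.41. These 3 genes too had groups that did not overlap, as did 26 of the 51 (51.0%, against 39.6% of all genes). Within the knockdown group, shTPX2 1 was above shTPX2 2 for 26 of the 51 upstream genes (51.0%), and 0 of them differed by over 2-fold between these libraries.

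A further list held 40 NF-κB targets outside the 39, of which 37 were in the table and 35 were tested. The criteria were met by 4 of the 35 (11.4%, against 14.2% of all genes), the median log2 fold change was −0.03, and 0 passed at an edgeR adjusted p below 0.05. EDN1, the vasoconstrictor endothelin, was at 17.39 and 16.64 TPM in shNC and at 23.99 and 26.79 TPM in shTPX2 (log2 fold change 0.67, adjusted p = 0.579). KYNU, an enzyme of tryptophan breakdown, was at 202.2 and 219.7 TPM against 269.2 and 281.1 TPM (log2 fold change 0.44), with the libraries of each group closer together than the groups. ZC3H12A, an RNase that degrades cytokine transcripts, was at 52.06 and 85.46 TPM against 109.6 and 83.48 TPM, so that shNC 2 and shTPX2 2 were nearly level (log2 fold change 0.62). CD274, the immune checkpoint ligand, was at 1.63 and 2.08 TPM in shNC and at 0.75 and 0.43 TPM in shTPX2 (log2 fold change −1.21, SE 0.44). Of these 35 targets 24 (68.6%, against 51.8% of all genes) were higher in shTPX2 1 than in shTPX2 2, and 13 (37.1%, against 7.42%) differed by over 2-fold between the shNC libraries.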

How the data were processed

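Poly(A) RNA of 4 PC9 libraries was sequenced. The deposited table held expected counts, TPM and FPKM per gene and library, made by the authors from reads on GRCh38. The submitters' processing notes name HISAT2, featureCounts and DESeq2, and the study's methods name RSEM or StringTie, so the counter is uncertain. Of the values, 42.2% to 44.6% per library were not whole, and they were rounded. The deposited FPKM values were not used, nor were the group averages, of which the average TPM differed by over 0.02 from the mean of the listed libraries for 15991 (shNC) and 16257 (shTPX2) genes. No column was left unmapped.

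R 4.3.3 with edgeR 4.0.16 (filterByExpr, TMM, quasi-likelihood test, Benjamini-Hochberg adjustment over 14048 genes), limma 3.58.1 and DESeq2 1.42.0 were used. They were tested on simulated data with 200 genes changed by a log2 fold of 2. At that size edgeR and DESeq2 recovered 86% and 87.5% at the adjusted threshold. With limma it was 97.5% at the study's criteria, which use an unadjusted p, so this share cannot be compared with the others. Calls among the unchanged genes are not given here. Smaller changes were not simulated. The members and lists were chosen with earlier results of these data known. Among the 39, every library value was given for genes meeting the study's criteria, subunits, IκB proteins and the 5 with the highest mean TPM. Other genes were given by range, and any named otherwise were chosen after their values were seen. Upstream genes that were called were named by edgeR p, 3 in each direction. Promoters came from RefSeq (GRCh38.p14) and SAA coding sequence from GENCODE. The labels do not say that libraries of a group came from separate cultures, so p-values measure the spread between these libraries, and floors cover counting error only. Alternatives changed the scaling, filter, test, block and libraries. No batch other than the shared one was found in the labels. The single values of 1 leukocyte marker are not reported here.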

Additional observations from a re-analysis of the deposited data

How the results depend on the processing

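Depth limits CSF2, CSF3 and CCL2, and 2 libraries a group limit the rest, with a common biological coefficient of variation of 22%. Over the alternatives other than leaving out a library, 243 of 250 fold changes of the 36 genes kept their sign and 7 did not. With library size alone BCL3 was 0.00, IRAK2 −0.02 and C3 −0.04. With no filter TRAF1 and CD83 were 0.01. The same library numbers in both groups are not said to pair samples (correlation of same-numbered deviations 0.18). With a replicate block TRAF1 was 0.01 and SAA2 0.93, both reversed, while SAA1 at 1.32 and LCN2 at 0.69 kept their sign. The study's criteria were then met by 7 of the 36 genes, 7 of the 35 other targets and 11 of the 51 upstream genes. Over all genes tested 17.4% met them in that fit, and 0 genes passed the edgeR test. With adjusted in place of unadjusted p, 0 genes of each list met the criteria. DESeq2 called 111 genes of all at an adjusted p below 0.05, against 0 with edgeR. With no filter CSF3 also met the criteria, on counts too low for a fold change.

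Leaving out a library gave 4 to 11 of the 36 or 37 genes then tested at the criteria, 3 to 17 upstream genes, 4 to 14 other targets and 0 to 23 genes of all at an adjusted p below 0.05. The median of these genes ran from −0.20 to 0.34 and TPX2 from −1.21 to −0.24. The share of all genes at the criteria, given above for each fit, was smallest without shTPX2 2 and largest without shNC 1. The upstream count was smallest and largest in the same fits, but the NF-κB count was largest without shTPX2 2. Of 144 fold changes 39 reversed, over 24 genes. Their ranges were −0.36 to 0.80 for NFKB1, −0.49 to 0.09 for NFKB2, −0.59 to 0.35 for REL, −0.19 to 0.40 for BCL3, −0.21 to 1.14 for TNFAIP3, −0.14 to 0.61 for TNIP1, −0.67 to 0.16 for BIRC3 and −0.32 to 0.39 for TRAF1. They were −0.14 to 0.28 for IRAK2, −0.23 to 0.57 for TNFAIP2, −0.29 to 2.87 for IL1B, −1.30 to 0.30 for IL32, −0.20 to 0.97 for TNF, −0.99 to 0.07 for LTB, −0.17 to 0.35 for ICAM1 and −0.38 to 0.30 for CD83. The last were −0.59 to 0.42 for SOD2, −1.89 to 0.72 for PTGS2, −0.76 to 3.45 for SAA1, −1.32 to 3.37 for SAA2, −0.40 to 1.81 for LCN2, −0.32 to 0.54 for C3, −0.07 to 0.99 for PLAU and −0.68 to 0.11 for PLAUR. The 12 genes that kept their sign ran from 0.02 to 0.24 for RELA, 0.00 to 0.48 for RELB, 0.34 to 0.71 for NFKBIA, −0.82 to −0.11 for NFKBIE, 0.29 to 0.85 for NFKBIZ, −0.52 to −0.20 for BIRC2 and from 0.37 to 1.75 for IL1A, 0.05 to 1.73 for IL6, −1.26 to −0.37 for IL18, 0.05 to 0.64 for LIF, 0.21 to 0.41 for CCL5 and 0.81 to 2.11 for CCL20. The cause of these changes was not tested.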
